A study of Mus musculus with 20 samples.

Results

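The 9 effectors of regulated cell death described here were followed through the adipose tissues of mice that lost the phosphatase-binding protein α4 from adipocytes: Ripk1, Ripk3, Mlkl, Zbp1, Gsdmd, Casp8, Bcl2l11, Bid and Birc3. They were taken by symbol from the table of gene counts, and all 9 were found among its 25219 genes. The 9 were chosen with earlier results of these data known, so shares of all genes beside their counts are descriptive only. RNA was sequenced from inguinal white adipose tissue (iWAT) and brown adipose tissue (BAT) of male mice on a mixed C57Bl/6 background, with each genotype (Control or Ai-α4KO) and tissue measured in 5 libraries. Ai-α4KO mice carried floxed Igbp1 alleles, the gene for α4, together with an Adiponectin-CreERT2 transgene. The adiponectin promoter drives this recombinase in adipocytes, so the other cells of the tissue keep the gene. Control mice, called WT in the labels, carried the floxed alleles without the transgene. Both genotypes received Tamoxifen from 2 months of age, and tissue was taken 1 week after recombination. The labels do not say whether the same mice gave both tissues, and p-values measure the spread between these libraries.

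The 9 genes belong to 3 linked programs. In apoptosis, caspase-8 (Casp8) is activated below death receptors and cleaves Bid, which, like the related BH3-only protein Bim (Bcl2l11), opens the mitochondrial path to the executioner caspases. In necroptosis, Ripk1 or the nucleic acid sensor Zbp1 engages the kinase Ripk3, which phosphorylates Mlkl so that it breaches the plasma membrane, while active caspase-8 restrains this route. In pyroptosis, inflammatory caspases cleave gasdermin D (Gsdmd) into a pore-forming fragment, and Birc3 is a ubiquitin ligase that holds Ripk1 in survival complexes below the TNF receptors.

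Promoter letters were read from RefSeq (GRCm38.p6) as windows from 250 bases before to 50 bases after a transcript start. Of the 9 genes 7 matched, with 9 promoters in all, and no entry was found for Zbp1 or Gsdmd. Each window was searched on both strands for the core of an interferon response element (GAAA repeated after any 2 bases), for a STAT site (TTCNNNGAA), for a FOXO site (GTAAACA) and for the kappaB consensus. The interferon core was present in 3.44% of all 32851 promoters, the STAT site in 8.3%, the FOXO site in 3.65% and the kappaB consensus in 8.46%. Among the members, the promoter at the transcript start that the count table gives for Ripk1 held 2 STAT matches, at -108 to -100 and at -11 to -3, and an interferon core that ran from -5 across the start to 4, thus overlapping the second STAT match. One Bcl2l11 promoter held a FOXO match at -227 to -221, and no member window held the kappaB consensus. Both promoters are shown as the only member sequences with a match, upstream bases only, with the matched letters in capitals. Ripk1 lies at chr13:34002624-34002873 and Bcl2l11 at chr2:128125788-128126037, both on the plus strand.
Ripk1: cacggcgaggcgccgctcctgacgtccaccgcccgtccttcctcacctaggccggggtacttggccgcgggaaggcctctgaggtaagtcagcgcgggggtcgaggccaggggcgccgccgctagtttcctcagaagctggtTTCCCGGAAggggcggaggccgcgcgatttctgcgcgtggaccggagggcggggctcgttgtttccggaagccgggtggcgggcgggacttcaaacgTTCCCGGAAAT
Bcl2l11: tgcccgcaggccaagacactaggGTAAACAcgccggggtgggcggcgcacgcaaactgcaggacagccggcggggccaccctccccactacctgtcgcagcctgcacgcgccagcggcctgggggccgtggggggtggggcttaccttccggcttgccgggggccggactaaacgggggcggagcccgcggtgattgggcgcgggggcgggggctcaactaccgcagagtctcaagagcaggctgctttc

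Libraries held between 24023371 and 50384446 counts. Gene levels are in CPM, that is, counts divided by a TMM-normalized library size, with normalization over all 20 libraries. A gene was called at an adjusted p below 0.01 and at least a 2-fold change in edgeR's quasi-likelihood test. Igbp1 was lower in every Ai-α4KO library than in every Control library, by -2.65 on the log2 scale for iWAT and -2.50 for BAT (adjusted p = 4.99e-08 and 2.2e-07, edgeR's quasi-likelihood test). Adipocyte markers, summed over 9 genes, were at 26620 to 43560 CPM in Control and at 12740 to 18000 CPM in Ai-α4KO libraries. Ucp1, the uncoupling protein of brown fat, told the tissues apart, at 657 to 6674 CPM in BAT and at 0.709 to 314 CPM in iWAT. Some libraries stood apart by markers of other tissues. Summed B cell markers were at 477 and 189 CPM in Control iWAT libraries 1 and 4 and at 13.0 CPM or less in the other 8 iWAT libraries. T and NK cell markers were at 175 and 197 CPM in the same 2 Control libraries and at 8.24 to 10.8 CPM in the other 3. Keratinocyte and mammary epithelial markers were at 19.7 to 88.7 CPM in Control iWAT 1 and 4 and Ai-α4KO iWAT 1 and 2, against 1.27 CPM or less in the others. Skeletal muscle markers reached 6505 CPM in Control iWAT 4 and 3579 CPM in Ai-α4KO iWAT 1. In BAT they were at 759 to 7885 CPM in Control and 10890 to 36060 CPM in Ai-α4KO libraries, highest in Ai-α4KO BAT 4.

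In Control mice the death effectors were less abundant in BAT than in iWAT. All 9 had a lower mean in Control BAT, 6 were called lower against 15.4% of all genes, and 7 had no overlap between the tissues against 19.1% of all genes. Zbp1 showed the largest difference of the 9, a log2 value of -2.64 (SE 0.34, adjusted p = 3.65e-06, edgeR's quasi-likelihood test in a fit of all 20 libraries). Bid followed at -1.84 (SE 0.30), Mlkl at -1.69 (SE 0.17) and Gsdmd at -1.40 (SE 0.16), although Bid overlapped between the tissues in 1 library. Casp8 at -1.03 (SE 0.13) and Ripk3 at -1.01 (SE 0.22) lay at the fold limit. The call of Ripk3 was lost in 13 of 26 other settings, down to -0.84 without Control BAT 3, and that of Casp8 in 3 of 26. Birc3 gained a call without Control iWAT 3 (-1.05) or Control BAT 4 (-1.07). With 1 library left out, 4 to 7 members were called. Birc3 at -0.95 and Ripk1 at -0.40 passed the adjusted p (0.000829 and 0.00739, edgeR's quasi-likelihood test) but not the fold, and Bcl2l11 at -0.61 passed neither (adjusted p = 0.0248). Summed macrophage markers were also lower in Control BAT, at 164 to 258 CPM against 530 to 1015 CPM in Control iWAT. So were fibroblast and progenitor markers, at 636 to 1062 CPM against 1747 to 3207 CPM, and T and NK cell markers, at 2.72 to 5.82 CPM against 8.24 to 197 CPM. B cell markers (1.29 to 4.37 against 5.90 to 477 CPM) and adipocyte markers (26620 to 28840 against 32430 to 43560 CPM) were lower in Control BAT too, while endothelial markers were higher (658 to 919 against 350 to 475 CPM). The part of these markers in the tissue difference was not tested. In bulk tissue, fewer cells of a type and less RNA per cell cannot be told apart.

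After α4 loss every one of the 9 effectors was more abundant in both tissues. In iWAT 7 of 9 were called higher, against 11.3% of all genes, and in BAT 8 of 9, against 18.2%. As the 9 were chosen with earlier results of these data known, this excess is no test of the set. The lowest Ai-α4KO library lay above the highest Control library for all 9 genes in both tissues, against 20.7% of genes in iWAT and 24.7% in BAT. Each such separation gives p = 0.00794 in the exact permutation test (two-sided, 5 against 5 libraries), the smallest value this design allows. The 9 log2 fold changes had a median of 1.57 in iWAT and 2.20 in BAT, beside 0.01 and -0.03 over all genes tested. Macrophage markers moved the same way, as all 8 were called higher in both tissues and their sum rose 3.90-fold in iWAT and 9.89-fold in BAT. Neutrophil markers rose 5.10-fold and 13.7-fold in sum, with 4 of 5 tested called higher in iWAT and 4 of 4 in BAT. Elane, a neutrophil protease, was called lower in iWAT at a log2 fold change of -4.30 (adjusted p = 0.001, edgeR's quasi-likelihood test). Adipocyte markers fell to 0.392 and 0.54 times their Control sum. Endothelial markers fell to 0.533 and 0.356 times their Control sum without overlap, and in BAT T and NK cell markers rose 7.83-fold and fibroblast and progenitor markers 1.77-fold, also without overlap. In iWAT T and NK cell markers were at 16.5 to 57.9 CPM in Ai-α4KO libraries, between Control libraries 1 and 4 and the 3 lower Control libraries. The part of these cells in the member differences was not tested, and each member is set against the macrophage markers further on.

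**Figure D1:**
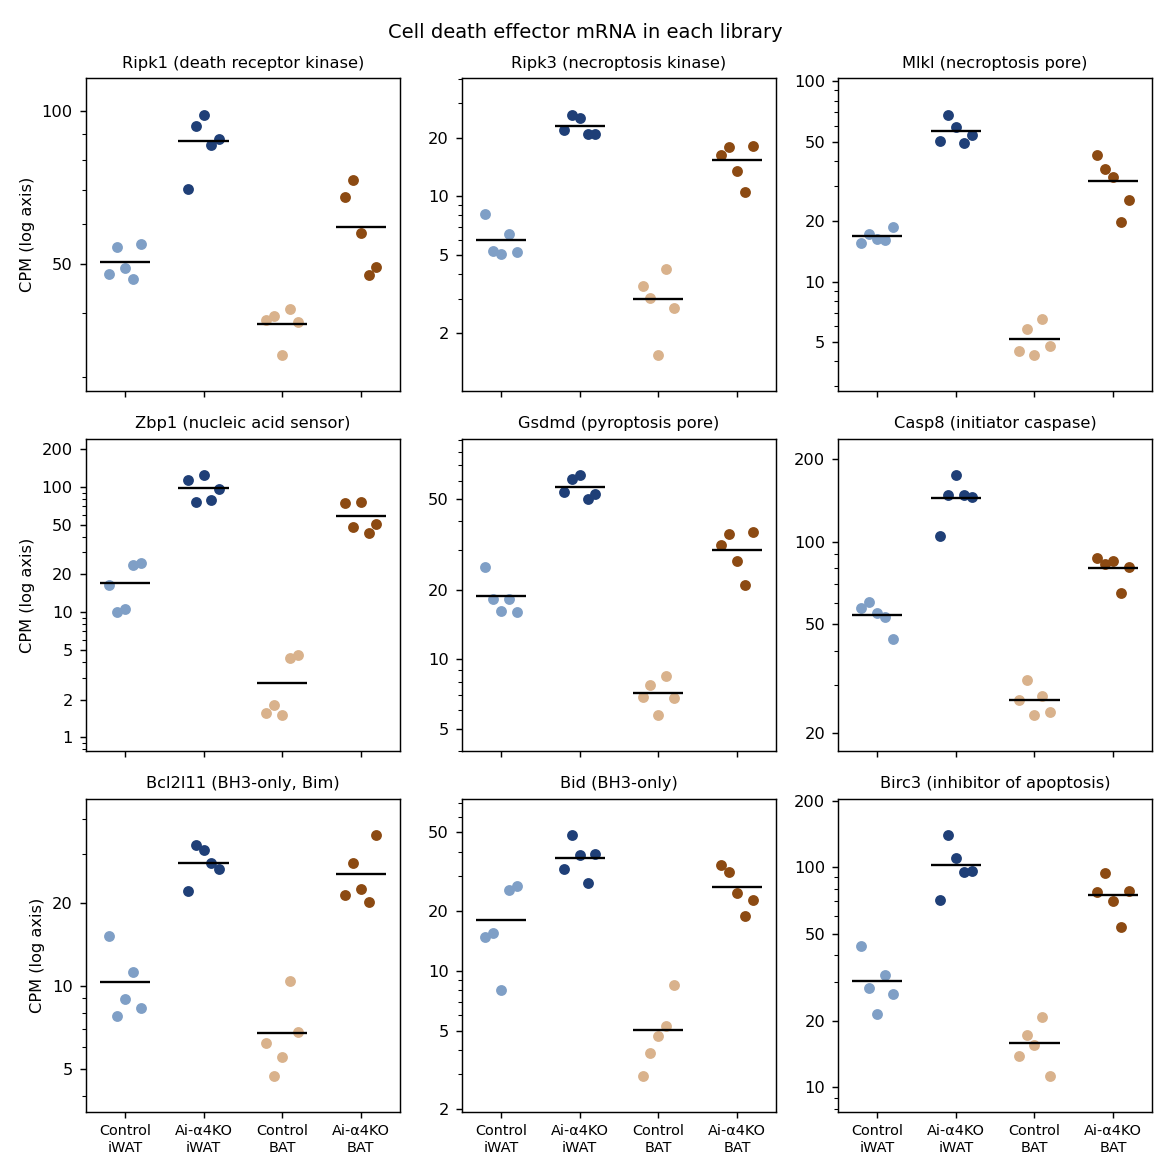
Level of each of the 9 effectors in CPM (log axis) in the 5 libraries of each group, in the order of their numbers; points are libraries and bars are group means. In both tissues all Ai-α4KO points lie above all Control points, the widest gap being that of Zbp1 in BAT (lowest Ai-α4KO library 43.3 CPM, highest Control library 4.5 CPM).

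Zbp1, which senses nucleic acids in the Z conformation and passes the signal to Ripk3, changed most of the 9. In BAT it was at 1.55, 1.80, 1.496, 4.30 and 4.5 CPM in Control libraries 1 to 5 and at 75.1, 47.8, 75.4, 43.3 and 50.4 CPM in Ai-α4KO libraries. The lowest Ai-α4KO library was 9.61 times the highest Control library, and Control libraries 4 and 5 stood above the other 3. The log2 fold change was 4.37 (SE 0.36, adjusted p = 9.59e-07, edgeR's quasi-likelihood test), or 20.6-fold, and 1.56% of all genes tested in BAT rose more. In iWAT Control libraries held 16.5, 10.1, 10.5, 23.8 and 24.5 CPM and Ai-α4KO libraries 113, 76.2, 125, 78.2 and 96.3 CPM. Here too Control libraries 4 and 5 were the highest, and the groups were apart by 3.10 times. The log2 fold change was 2.51 (SE 0.28, adjusted p = 2.95e-05, edgeR's quasi-likelihood test).

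The kinase Ripk3 and its substrate Mlkl, the membrane effector of necroptosis, rose in both tissues. Ripk3 was at 8.09, 5.25, 5.07, 6.40 and 5.19 CPM in Control iWAT and at 22.0, 26.3, 25.2, 20.97 and 20.9 CPM in Ai-α4KO iWAT. In BAT it was at 3.46, 3.01, 1.54, 4.23 and 2.67 CPM in Control and at 16.3, 17.9, 13.6, 10.5 and 18.2 CPM in Ai-α4KO libraries. The Ai-α4KO values were tight in iWAT (SD 2.5 CPM), while Ai-α4KO BAT 4 was the lowest of its group. This library also had the most muscle marker RNA, the lowest summed macrophage markers of the Ai-α4KO BAT libraries (1353 CPM) and the most remaining Igbp1 (25.2 CPM, against 13.7 to 17.4 CPM in the other 4). Ripk3 thus changed by 1.93 on the log2 scale in iWAT (SE 0.16, adjusted p = 4.87e-06) and by 2.32 in BAT (SE 0.25, adjusted p = 9.04e-06, edgeR's quasi-likelihood test). Its locus overlaps the predicted gene Gm32092, and how reads of overlapping genes were counted is not given in the sources used here. Mlkl was at 15.6, 17.4, 16.4, 16.1 and 18.6 CPM in Control iWAT and at 50.6, 68.3, 59.0, 49.1 and 54.2 CPM in Ai-α4KO iWAT. In BAT it went from 4.51, 5.83, 4.31, 6.53 and 4.78 CPM to 42.9, 36.6, 33.1, 19.8 and 25.7 CPM. Control iWAT libraries were close together for Mlkl (coefficient of variation 7.11%), and Ai-α4KO BAT 4 was again lowest. The log2 fold changes of Mlkl were 1.73 in iWAT (SE 0.11, adjusted p = 1.86e-06) and 2.57 in BAT (SE 0.22, adjusted p = 1.03e-06, edgeR's quasi-likelihood test).

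Ripk1, the kinase that death receptors recruit ahead of both apoptosis and necroptosis, changed least of the 9. It ran from 46.8 to 54.6 CPM in Control iWAT (median 49.1) and from 70.2 to 98.3 CPM in Ai-α4KO iWAT (median 87.9). In BAT the ranges were 33.1 to 40.8 CPM (median 38.7) and 47.6 to 73.0 CPM (median 57.6). The genotypes did not overlap, but the change was 1.72-fold in iWAT (adjusted p = 7.33e-05) and 1.51-fold in BAT (adjusted p = 0.00182, edgeR's quasi-likelihood test), below the fold that a call required. Ripk1 is also the member whose promoter held the interferon and STAT letters printed above.

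Casp8, the initiator caspase of the death receptor path, was at 57.3, 60.3, 54.9, 53.1 and 44.3 CPM in Control iWAT and at 105, 148, 175, 148 and 145 CPM in Ai-α4KO iWAT. In BAT it was at 26.4, 31.2, 23.3, 27.4 and 23.9 CPM in Control and at 86.9, 83.1, 85.3, 65.1 and 80.5 CPM in Ai-α4KO libraries. Ai-α4KO iWAT 1 was the lowest of its group and still 1.74 times the highest Control library. The log2 fold change was 1.41 (SE 0.14, adjusted p = 1.26e-05) in iWAT and 1.57 (SE 0.12, adjusted p = 3.94e-07, edgeR's quasi-likelihood test) in BAT. Gsdmd, the pore protein of pyroptosis, was at 25.1, 18.3, 16.2, 18.4 and 16.0 CPM in Control iWAT and at 53.4, 60.9, 63.5, 49.9 and 52.6 CPM in Ai-α4KO iWAT. In BAT Control libraries held 6.88, 7.75, 5.71, 8.50 and 6.77 CPM and Ai-α4KO libraries 31.3, 35.1, 26.7, 21.1 and 35.7 CPM. Control iWAT 1, which carried B cell markers, was the highest Control library for Gsdmd, Ripk3, Bcl2l11 and Birc3 alike. The log2 fold change of Gsdmd was 1.57 (SE 0.14, adjusted p = 6.91e-06) in iWAT and 2.04 (SE 0.17, adjusted p = 1.09e-06, edgeR's quasi-likelihood test) in BAT.

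Both BH3-only genes rose in BAT, whereas in iWAT the call was made for Bcl2l11 alone. Bcl2l11, which encodes Bim, ran from 7.8 to 15.2 CPM in Control iWAT (median 8.98) and from 22.0 to 32.2 CPM in Ai-α4KO iWAT (median 27.8). In BAT it ran from 4.73 to 10.4 CPM in Control (median 6.19) and from 20.1 to 35.0 CPM in Ai-α4KO libraries (median 22.4). Its log2 fold change was 1.43 in iWAT (SE 0.19, adjusted p = 0.000102) and 1.87 in BAT (SE 0.24, adjusted p = 2.76e-05, edgeR's quasi-likelihood test). The gene overlaps Acoxl, so reads shared by the pair are uncertain. Bid, the substrate that links caspase-8 to mitochondria, was at 14.9, 15.5, 8.001, 25.5 and 26.7 CPM in Control iWAT and at 32.6, 48.4, 38.2, 27.8 and 38.96 CPM in Ai-α4KO iWAT. In BAT the values were 2.96, 3.83, 4.71, 5.26 and 8.44 CPM in Control and 34.1, 31.4, 24.7, 18.99 and 22.7 CPM in Ai-α4KO libraries. Control iWAT was the most scattered group for Bid (coefficient of variation 43.4%), and its highest library lay just under the lowest Ai-α4KO library (ratio 1.04). Bid therefore missed the call in iWAT at 1.03 on the log2 scale (SE 0.29, adjusted p = 0.0108) and passed it in BAT at 2.34 (SE 0.27, adjusted p = 1.46e-05, edgeR's quasi-likelihood test). Without Control iWAT 4 the iWAT value was 1.19 (adjusted p = 0.00727) and without Control iWAT 5 it was 1.21 (adjusted p = 0.00631, edgeR's quasi-likelihood test), both past the threshold. Bid overlaps the predicted gene Gm17812.

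Birc3, the inhibitor of apoptosis among the 9, rose as well. It ran from 21.6 to 43.9 CPM in Control iWAT (median 28.3) and from 71.2 to 140 CPM in Ai-α4KO iWAT (median 96.4). In BAT it ran from 11.3 to 20.99 CPM in Control (median 15.6) and from 53.4 to 94.1 CPM in Ai-α4KO libraries (median 77.4). The log2 fold change was 1.74 in iWAT (SE 0.21, adjusted p = 5.19e-05) and 2.20 in BAT (SE 0.19, adjusted p = 1.13e-06, edgeR's quasi-likelihood test).

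The members called higher were still called without the libraries that stood apart. Without Control iWAT 1 and 4 and Ai-α4KO iWAT 1 and 2, the iWAT log2 fold changes of the 7 called genes ran from 1.48 (Casp8) to 2.65 (Zbp1), and all 7 stayed past the threshold. Without Ai-α4KO BAT 3, 4 and 5, those with most muscle marker RNA, the 8 called genes in BAT ran from 1.69 (Casp8) to 4.47 (Zbp1) and also stayed past it. The remaining Ai-α4KO BAT 1 and 2 still held 10890 and 12220 CPM of muscle markers, above the Control BAT range of 759 to 7885 CPM. This fit thus did not remove the muscle difference, and its part in the BAT values was not tested. Both sets of left-out libraries were chosen after their marker levels were seen.

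The genotype difference was then compared between the tissues as an interaction term fitted over the 20 libraries. None of the 9 members passed an adjusted p of 0.01 (edgeR's quasi-likelihood test), against 4.86% of all genes, and 4 passed an unadjusted p of 0.05, against 31% of all genes. Zbp1 was nearest, its log2 fold change being 1.89 larger in BAT (SE 0.45, adjusted p = 0.01005), followed by Mlkl at 0.86 (SE 0.24, adjusted p = 0.0208) and Bid at 1.35 (SE 0.41, adjusted p = 0.034). Under DESeq2 these 3 genes passed, with differences of 1.96, 0.93 and 1.41 (adjusted p = 0.000305, 0.0036 and 0.00678). With library size or upper-quartile normalization in place of TMM, Zbp1 passed (adjusted p = 0.00938 and 0.00786, edgeR's quasi-likelihood test). In edgeR, Zbp1 also passed without any single one of Control iWAT 2 or 3, Ai-α4KO iWAT 1 or 3, Control BAT 4 or 5, or Ai-α4KO BAT 2 (adjusted p from 0.00594 to 0.00975). Mlkl passed without Ai-α4KO iWAT 2 or Ai-α4KO BAT 4 (adjusted p = 0.00986 and 0.00446), and Bid without Control iWAT 3 (adjusted p = 0.00936). The differences of the other 6 ran from -0.16 (Ripk1) to 0.50 (Gsdmd).

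**Figure D2:**
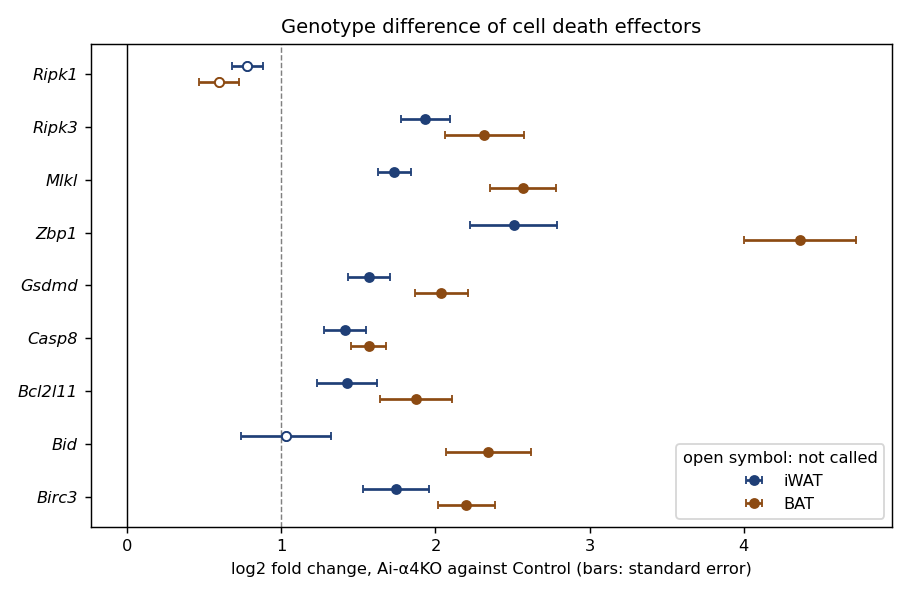
Log2 fold change of each effector, Ai-α4KO against Control, in iWAT (blue) and BAT (brown) with standard errors; open symbols were not called and the dashed line marks a 2-fold change. Ripk1 stays left of the line in both tissues (0.78 and 0.60), and Zbp1 shows the widest distance between tissues (2.51 and 4.37).

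To compare the genes with each other, levels were taken per transcript length as FPKM, fragments scaled by transcript length and library total. In Control iWAT Casp8 stood first at 16.8 ± 2.25 FPKM (SD, n = 5), with no overlap with Ripk1 at 10.1 ± 0.943. Behind it, Ripk1, Birc3, Gsdmd, Mlkl, Bid and Zbp1 followed from 10.1 down to 7.17 FPKM, each overlapping its neighbour. Ripk3 at 2.76 ± 0.712 and Bcl2l11 at 1.31 ± 0.435 FPKM were the lowest, each without overlap with the gene above. In Ai-α4KO iWAT Casp8 remained first at 48.8 ± 7.96 FPKM, but Zbp1 at 44.3 ± 9.62 moved from seventh to the second place and Ripk1 at 18.95 ± 2.09 from the second to seventh. The places are not firm, since the first 5 genes in Ai-α4KO iWAT, down to Gsdmd, each overlapped the next. In Control BAT each gene overlapped its neighbour from Casp8 at 7.08 ± 0.758 down to Bcl2l11 at 0.737 ± 0.26 FPKM, and Zbp1 was eighth at 0.992 ± 0.583. In Ai-α4KO BAT Casp8, Zbp1 and Birc3 overlapped at 25.4 ± 3.79, 24.7 ± 6.999 and 24.4 ± 5.91 FPKM. Summed over the 9 genes, Zbp1 made up a mean 3.36% of the FPKM in Control BAT and 17.4% in Ai-α4KO BAT, while Ripk1 went from 23.2% to 8.49%.

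Ratios of FPKM within a library set each effector beside a partner or an opposing protein. These pairs were picked with the values known and carry no test. Cflar encodes the caspase-8 inhibitor cFLIP, and it was not called in either tissue (log2 fold change 0.07 in iWAT and -0.11 in BAT). Casp8 per Cflar was 1.26 ± 0.165 in Control and 3.20 ± 0.534 in Ai-α4KO iWAT, and 0.804 ± 0.0441 and 2.59 ± 0.408 in BAT (SD, n = 5), with no overlap in either tissue. Ripk3 per Ripk1 rose likewise, 0.275 ± 0.0732 against 0.61 ± 0.0712 in iWAT and 0.176 ± 0.0493 against 0.599 ± 0.138 in BAT, again without overlap. Birc3 per Birc2, its close relative, was 0.544 ± 0.118 and 1.36 ± 0.139 in iWAT and 0.274 ± 0.0416 and 1.17 ± 0.153 in BAT, so Birc3 was the less abundant of the pair in every Control library. Mlkl per Ripk3 overlapped between genotypes in both tissues, at 3.37 ± 0.782 and 2.81 ± 0.17 in iWAT and 2.16 ± 0.657 and 2.41 ± 0.553 in BAT. For Bcl2l11, the ratio to one antagonist separated the genotypes and the ratio to another did not. Bcl2l11 per Bcl2l1, which encodes Bcl-xL, was 0.0896 ± 0.0218 and 0.34 ± 0.111 in iWAT and 0.0319 ± 0.00564 and 0.285 ± 0.113 in BAT, without overlap. Bcl2l11 per Mcl1 overlapped in both tissues, at 0.0194 ± 0.00435 and 0.022 ± 0.00267 in iWAT and 0.0166 ± 0.00497 and 0.023 ± 0.00473 in BAT. Mcl1 itself was called higher in both, with log2 fold changes of 1.25 in iWAT and 1.39 in BAT. Gsdmd per Casp1, a caspase that cleaves it, overlapped in iWAT and went from 1.25 ± 0.198 to 0.65 ± 0.142 in BAT.

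**Figure D3:**
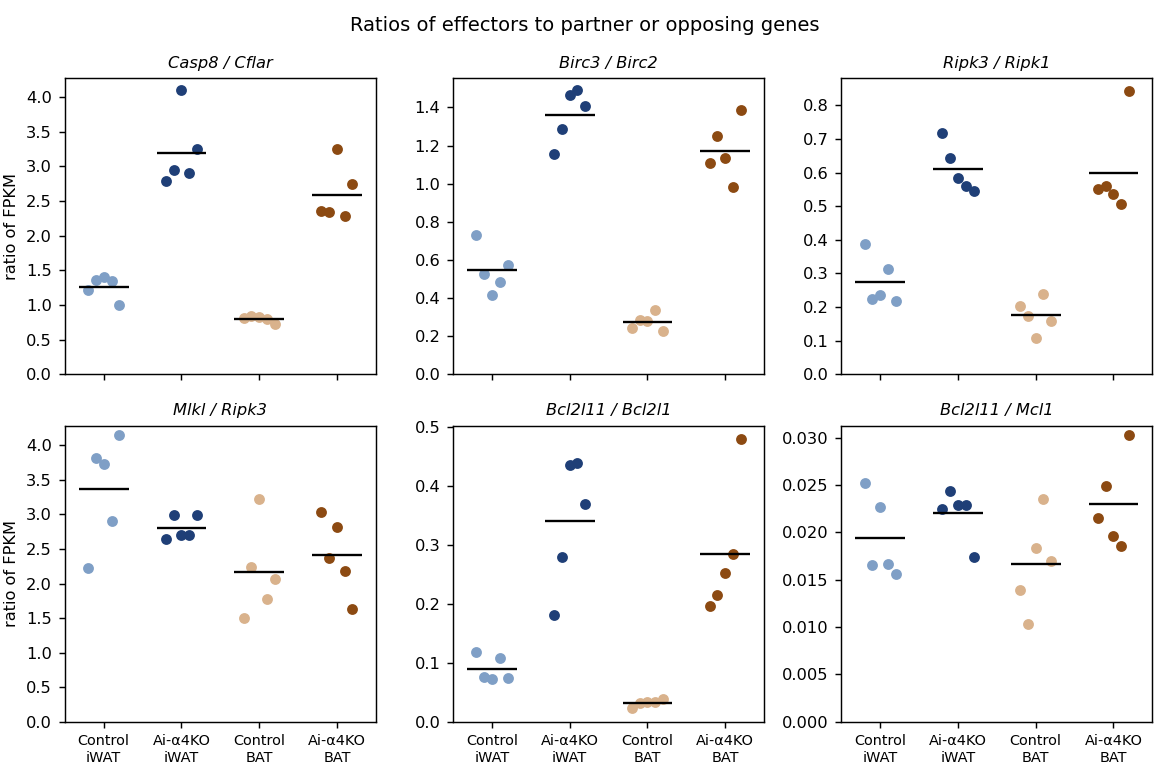
Ratio of FPKM (linear axes from 0) of each effector to a partner or opposing gene, for the 5 libraries of each group (points) with group means (bars). Casp8/Cflar, Birc3/Birc2, Ripk3/Ripk1 and Bcl2l11/Bcl2l1 separate the genotypes in both tissues, whereas Mlkl/Ripk3 and Bcl2l11/Mcl1 overlap.

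Another 62 genes of the same pathways, in 7 lists chosen with results of these data known, showed how far the change reached. In iWAT 23 of 62 were called higher and 2 lower, and in BAT 23 of 61 higher and 4 lower, against 11.3% and 18.2% of all genes called higher and 10.7% and 13.3% called lower. Inflammasome and pyroptosis genes were called most often, 9 of 11 higher in iWAT (median log2 fold change 1.98) and 10 of 11 in BAT (3.43). Il1b, the cytokine matured by inflammatory caspases, rose by 4.95 and 5.53 on the log2 scale. Nlrp3, the sensor, rose by 3.77 and 4.44, and Pycard, the adaptor between sensor and caspase, by 2.38 and 4.16. Among other caspases 3 of 8 were called higher in each tissue, all inflammatory by family: Casp4 (2.57 and 4.81), Casp1 (1.47 and 2.97) and Casp12 (1.39 and 2.75). The mitochondrial initiator Casp9 was at 0.09 and 0.13, not called.

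The complex in which Ripk1 and Casp8 work was described by a list of its own. Of 14 genes of the death receptor complex and its ubiquitin regulators, 1 was called higher in each tissue and 1 lower in BAT, against 11.3% (iWAT) and 18.2% (BAT) of all genes higher and 13.3% lower in BAT, and the median over the list was 0.19 (iWAT) and 0.14 (BAT) on the log2 scale. The one that rose was Tnfaip3, which encodes the ubiquitin editor A20 (1.44 and 2.04), and the one that fell was Rbck1, a part of the linear ubiquitin ligase (-0.65, not called, and -1.04). The adaptor Fadd was at -0.08 and 0.26, not called. Of 8 death receptors and ligands, 3 of 8 tested were called higher in iWAT and 2 of 7 in BAT, beside 11.3% and 18.2% of all genes. Tnf rose by 2.25 and 4.28 and its receptor gene Tnfrsf1b by 1.54 and 3.19.

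For the mitochondrial arm, the counts of each list are to be read beside the 11.3% and 18.2% of all genes called higher and the 10.7% and 13.3% called lower. Among anti-apoptotic BCL2 genes 4 of 7 were called higher in iWAT and 5 of 7 in BAT, and 1 was called lower in BAT. Bcl2a1a (4.28 and 5.60), Bcl2a1b (3.70 and 5.37) and Bcl2a1d (4.16 and 5.35) rose most, but these copies are nearly identical and the split of reads between them is uncertain. Bcl2l1 was at -0.37 in iWAT, not called, and fell by 1.23 in BAT. Of 6 other BH3-only genes Pmaip1, which encodes Noxa, rose (3.18 and 5.08) and Hrk fell (-2.96 and -3.05), the latter from means of 0.521 and 1.07 CPM in Control. Ai-α4KO libraries held at most 6 counts of Hrk in iWAT and 7 in BAT, and its calls did not hold under every alternative given further on. Among the pore formers and the apoptosome, 2 of 8 were called higher in iWAT and 1 of 8 in BAT, with 1 called lower in each, counts this small being near the share over all genes. Apaf1, the scaffold that activates Casp9, rose by 1.89 and 2.16. Cycs, cytochrome c, fell by 1.02 and 1.05 on the log2 scale, from means of 727 to 359 CPM in iWAT and 2672 to 1318 CPM in BAT. The falls of Cycs, of Rbck1 and, in BAT, of Bcl2l1 lay near the fold limit, and with library size in place of TMM they were -0.89 and -0.80, -0.77 and -0.96 on the log2 scale, none called. Without Ai-α4KO BAT 3, 4 and 5, those with most muscle marker RNA, Rbck1 was at -0.98 and Bcl2l1 at -0.86 (adjusted p = 0.0409, edgeR's quasi-likelihood test), neither called. Single libraries also ended the calls of Cycs (without Control iWAT 2 or 3, Ai-α4KO iWAT 4 or 5, Control BAT 2, or Ai-α4KO BAT 1 or 2) and of Rbck1 (without Control BAT 1 or Ai-α4KO BAT 3 or 4), at values of -0.92 to -0.99.

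Of the 62 listed genes 7 passed the interaction test at an adjusted p of 0.01, each with the larger log2 fold change in BAT, against 3.26% of all genes. They were Casp4, Casp1, Pycard, Tnfrsf1b, Pmaip1, Naip5 and Bcl2. Of these, Bcl2 was at -0.26 in iWAT, not called, and rose by 1.10 in BAT. The differences were 2.28 for Casp4 (adjusted p = 0.000233), 1.52 for Casp1 (adjusted p = 0.000679) and 1.80 for Pycard (adjusted p = 0.000657, edgeR's quasi-likelihood test). Whether members and listed genes differ in this respect was not tested.

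**Figure D4:**
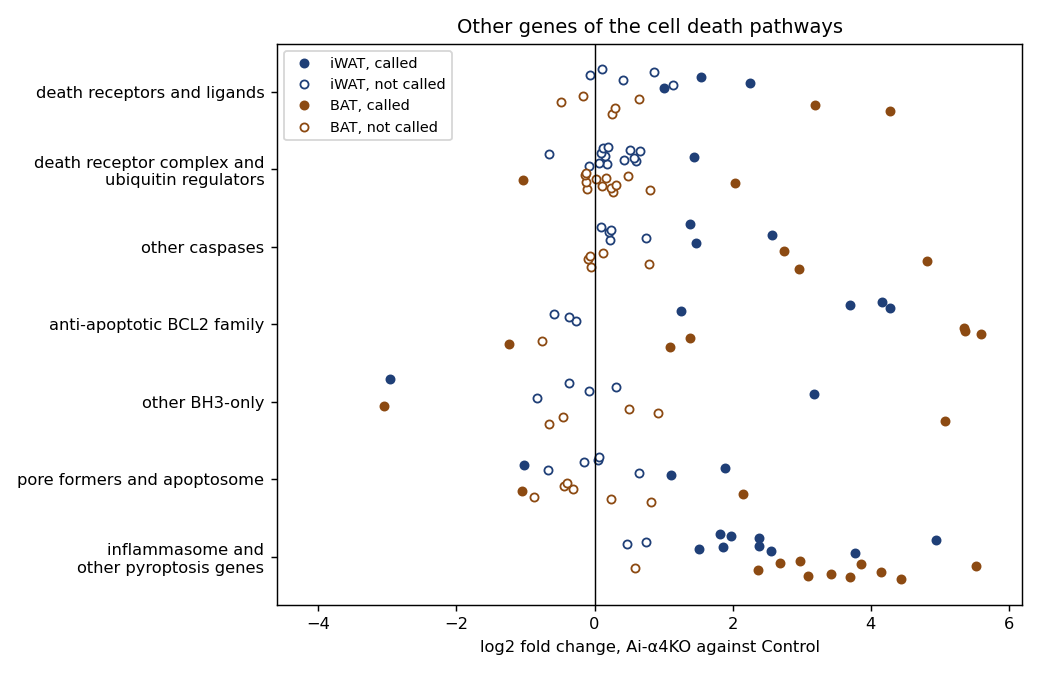
Log2 fold change, Ai-α4KO against Control, of each of the 62 listed genes by list, in iWAT (blue) and BAT (brown); filled symbols were called and vertical offsets within a list only separate points. The inflammasome and pyroptosis genes lie to the right (9 of 11 and 10 of 11 called higher), and the death receptor complex holds 1 of 14 genes called higher in each tissue.

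Set against the summed macrophage markers of the same library, none of the 9 members was higher without overlap in Ai-α4KO libraries in either tissue, against 1.08% and 1.38% of all genes, 2 were lower without overlap in iWAT against 80.9% of all genes, and 7 in BAT against 87.0%. Since most genes were lower on this scale, the count in BAT is not particular to the members. The Ripk1 level went from 6.31% of the macrophage marker sum in Control to 2.70% in Ai-α4KO libraries of iWAT, and 20.4% became 3.17% in BAT. Casp8 went from 6.77% to 4.44% and from 14.2% to 4.38%. Ripk3 was at 0.76% and 0.72% in iWAT, and its Control range of 0.922% to 2.11% overlapped the Ai-α4KO range of 0.682% to 1.06% in BAT. Zbp1 was the one gene with a higher mean, 2.27% and 3.09% in iWAT and 1.40% and 3.21% in BAT, but the libraries overlapped in both tissues. In Control iWAT its share ran from 0.995% to 4.497%, and in Ai-α4KO iWAT from 2.10% to 4.598%. These ratios compare RNA of a mixed tissue and do not show in which cells the effectors were transcribed.

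**Figure D5:**
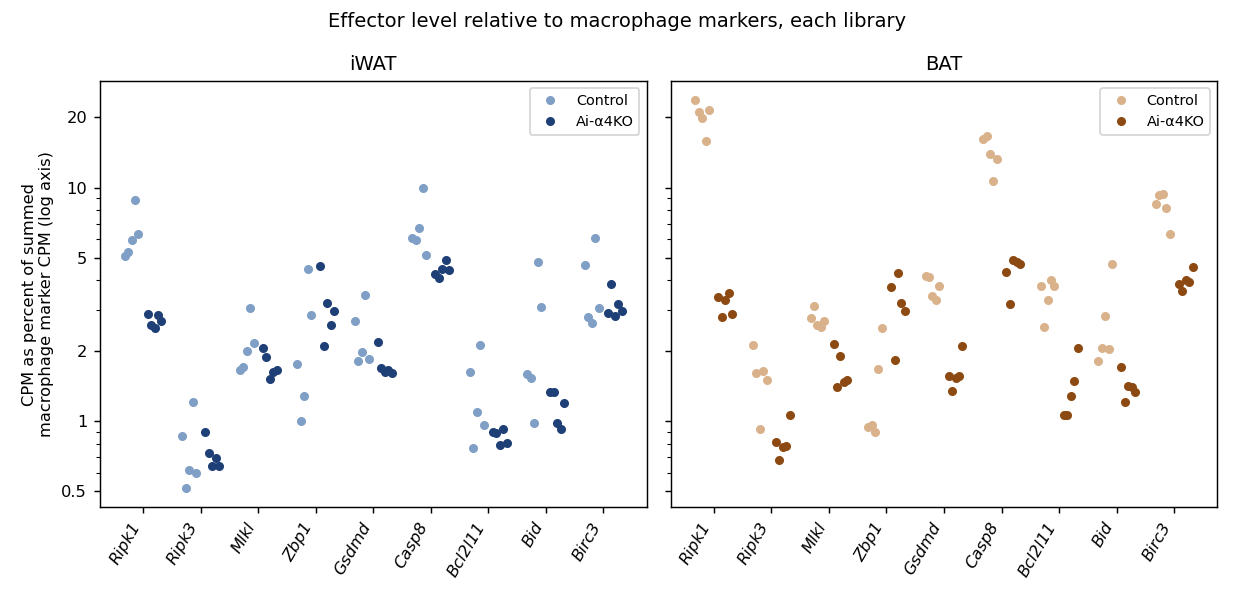
CPM of each effector as percent of the summed CPM of 8 macrophage markers in the same library (log axis), in iWAT and BAT; points are libraries. Ripk1 and Casp8 lie lower in all Ai-α4KO libraries of both tissues, and Zbp1 overlaps between the genotypes.

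The pattern of each member over the 4 groups was compared with that of all 13974 other genes tested in both tissues. Likeness was the Euclidean distance between the 4 group means of log2 CPM after each gene's own mean was subtracted. The 3 nearest genes of every member lay within 0.167 log2 units of it. They were Pyhin1, Rasgrp1 and C920009B18Rik for Zbp1, Trim36, Thbs1 and Pira6 (2) for Ripk3, and 2610524H06Rik, Oip5 and AI607873 for Mlkl. For Casp8 they were Taok3, Tpcn2 and Mcm2, for Gsdmd Mcm3, Dnah6 and Plekho2, and for Ripk1 Leprot, Slc23a2 and Ddx26b. For Bcl2l11 they were Tubb2b, Siglece and Wbp5, for Bid Ap1s3, Sgms2 and Gng2, and for Birc3 Slc7a1, Slc39a6 and Ptgr1. Within the 9, Ripk3 and Birc3 were alike, at a distance of 0.218, which made Birc3 the gene in place 13 for Ripk3. No other pair of members was among each other's 100 nearest genes. Ripk1 and Zbp1 were 3.29 log2 units apart.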

How the data were processed

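RNA of 20 libraries, 5 for each genotype and tissue, was sequenced by the submitters as stranded mRNA in paired reads of 150 bp. Their processing notes name bcl2fastq 2, STAR 2.5.3a and the mm10 build; the counting tool, annotation release and strand setting are not given in the sources used here. The authors deposited expected counts for 25219 genes without normalization, of which 76.7% of the nonzero values are whole (tolerance 1e-6), and FPKM values that scale the count by transcript width and a library total. Expected counts were rounded and fitted in R 4.3.3 with edgeR 4.0.16 (filterByExpr, TMM, glmQLFit) within each tissue, and in all 20 libraries for the interaction and the Control tissues, with Benjamini-Hochberg adjustment over all genes tested. Standard errors are the log2 fold change over the root of F. Genes were called at an adjusted p below 0.01 and 2-fold (interaction, adjusted p alone). The exact permutation test (two-sided) served for single values. DESeq2 1.42.0, limma 3.58.1 on log2 FPKM, other scalings, filters and thresholds, a replicate block and each library left out were alternatives. The methods were tested on simulated data.

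The genes named are Igbp1, the 9 members, from each list the 3 with the largest change called alike in both tissues and those called lower, and the 3 genes nearest to each member. Cflar, Fadd, Birc2, Mcl1, Casp9, Bcl2, Naip5, Ucp1, Elane and overlapping genes were named after their values were seen. Members and lists were chosen with earlier results of these data known. Gene positions are those of the deposited table. All libraries were used. Depth between 24023371 and 50384446 counts limits precision for genes of few counts such as Hrk.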

Additional observations from a re-analysis of the deposited data

Results flagged for a closer look

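Of 40 groups of 5 libraries tested for a library far from the rest, 1 stood out, where chance flags about 5% of groups. Gsdmd in Control iWAT 1 was at 25.1 CPM and the nearest other Control library at 18.4 CPM, a gap of 0.741 of the group's range. The same library held summed B cell markers of 477 CPM, and their part in the Gsdmd value was not tested. Without it the log2 fold change of Gsdmd in iWAT was 1.64 (adjusted p = 3.04e-06, edgeR's quasi-likelihood test), against 1.57 with all libraries.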

How the results depend on the processing

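For Ai-α4KO against Control, no member changed direction or lost its call under any alternative run. The interaction of Ripk1, not called at -0.16, was 0.0057 without Ai-α4KO BAT 5. The number of members called ran from 7 to 8 in iWAT and was 8 in BAT when each library was left out in turn. Library size without normalization factors moved the median of all genes to 0.13 in iWAT and 0.23 in BAT, below the change of every called member. Bid in iWAT passed under 8 settings, among them limma on log2(FPKM + 1) at 1.15 (adjusted p = 0.00536).

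The interaction count of 0 members became 3 at an adjusted p of 0.05 and 3 with DESeq2 (2297 and 1648 of all genes), and 1 (Zbp1) with library size, upper-quartile normalization or the block; with each library left out it ran from 0 to 2 (474 to 1019 of all genes). For Control BAT against Control iWAT it ran from 4 to 7. Ripk3 lost that call without Control iWAT 1 or 4, Control BAT 3 or 5, or 9 of the 10 Ai-α4KO libraries, and Casp8 without Control iWAT 2 or Control BAT 3 or 5, while Birc3 gained it without Control iWAT 3 or Control BAT 4, all at values near 2-fold.

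Listed genes called lower in iWAT (2) became 4 without a fold minimum, 1 with library size, at least 10 counts or the block, and 0 with limma on log2(FPKM + 1) or log2(FPKM + 0.1), and 1 to 3 with a library left out. In BAT (4) they became 7, 1 with library size, 1 with at least 10 counts, 0 and 1 with limma, 2 without Ai-α4KO BAT 3, 4 and 5, and 3 to 5 with a library left out. In iWAT the block and library size ended the call of Cycs (-0.98 and -0.89). The filter of at least 10 counts left Hrk untested and in BAT ended the calls of Cycs and Rbck1 (-0.996 and -0.98). Under limma only Hrk in BAT stayed called, with log2(FPKM + 0.1) at -1.06. With log2(FPKM + 1) Hrk was at -0.10 in iWAT and -0.18 in BAT. Without a fold minimum 3140 iWAT genes were called higher, 2749 iWAT genes lower and 3560 BAT genes lower. With limma on log2(FPKM + 1) 779 and 807 were lower, with log2(FPKM + 0.1) 1205 in BAT, and with library size 1265 in BAT. The cause was not tested.

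Shared replicate numbers were not shown to pair the samples: correlations of deviations between samples of one number ran from -0.451 to 0.244, and a sample correlated best with its own number in 4 of 10 pairs across tissues and 1 of 10 across genotypes. The labels do not state whether they share a mouse. With the replicate block 7 and 8 members were called in iWAT and BAT, and the interaction of Zbp1 was 1.95 (adjusted p = 0.000537, edgeR's quasi-likelihood test).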

Other observations

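Zbp1 and Bid shared a pattern within the Control mice. For both genes Control libraries 4 and 5 were the highest in iWAT and again in BAT, a feature of 239 of 13975 genes tested in both tissues (1.71%). For the 10 possible pairs of library numbers this count ran from 26 to 395 genes. Ripk3 was highest in Control libraries 1 and 4 of both tissues, as were 350 genes (2.504%). In Ai-α4KO mice Zbp1 was highest in libraries 1 and 3 of both tissues, as were 36 genes (0.258%), where the 10 pairs ran from 36 to 585 genes. The labels do not say whether libraries with the same number come from the same mouse. These patterns were noticed after the values were seen.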
